A study of Mus musculus with 9 samples.

Results

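The 10 genes described here carry growth hormone signalling and its feedback. They are the growth hormone receptor Ghr, its kinase Jak2, the transcription factors Stat5a, Stat5b and Stat3, the feedback inhibitors Cish, Socs1, Socs2 and Socs3, and the secreted target Igf1. They were taken by symbol from the 32285 genes of the count tables, and all 10 were present. Cish lies at chr9:107296026-107302784 (plus strand), Socs2 at chr10:95385362-95417180 (minus), Ghr at chr15:3317760-3583492 (minus) and Igf1 at chr10:87858265-87937042 (plus) in GRCm38. The set was chosen by pathway with the UMI levels of these same libraries, the chow libraries included, already known, so levels and ratios are given as a description and without tests.

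Growth hormone binds Ghr at the cell surface, and the receptor activates the tyrosine kinase Jak2, which phosphorylates Stat5a and Stat5b. The STAT5 proteins then enter the nucleus and switch on target genes, among them Igf1 and the feedback inhibitors Cish and Socs2, which dampen signalling at the receptor. Socs1 and Socs3 are inhibitors of the same family that are better known for restraining interferon and interleukin-6 signalling, the latter acting through Stat3. In adipose tissue growth hormone promotes fat breakdown, and it reaches the tissue in pulses, so transcripts of its fast targets can vary with the hour of sampling.

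Nuclei came from the epididymal fat of male C57BL/6J mice, with 1 library per group and 5 mice pooled in each, and their RNA was counted as unique molecular identifiers (UMIs), intronic reads included. The chow groups were C at 18 weeks of age, CC at 26 weeks and CCC at 39 weeks. H and HH had eaten high-fat diet for 12 and 25 weeks and were 18 and 31 weeks old. HC and HHC had the same 12 or 25 weeks of high-fat diet followed by 8 weeks of chow, and were 26 and 39 weeks old. CCH and HCH were 30 weeks old and ended on 4 weeks of high-fat diet, CCH after chow only and HCH after 12 weeks of high-fat diet and 8 weeks of chow. According to the methods, C received a low-fat chow, whereas CC and CCC had been moved to standard chow, so that diet type, age and library differ together between the chow groups and cannot be told apart. With 1 pool per group there was no replicate error, and every interval below is an exact 95% interval that covers counting error only.

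The 9 libraries held 5173 to 14833 barcodes and 22599619 to 66615262 UMIs, and 73215 nuclei were kept. Any pair of libraries shared 8 to 55 barcodes, at most 0.493% of the smaller library. Nuclei were placed in cell classes by marker genes, none of which was a member, and the adipocyte class held 197 (H) to 2378 (C) nuclei and 815167 to 11752039 UMIs. In CCC, 792 of the 1177 adipocyte-gated nuclei lay in clusters without a named type. The median UMI count of all 1177 was 2558, against 3870 to 5355 for the adipocyte gate of the other libraries. Levels are given as CPM (counts-per-million), the UMIs of a gene scaled to a fixed total of UMIs in its class and library, and a gene was called different between libraries at a ratio of at least 2-fold with at least 20 UMIs over both. Names in the deposited records carry a prefix that C, H, HH, CCH and HCH share and another shared by CC, CCC, HC and HHC. What the prefix marks was not stated, and HH with CC, CCH with CC, C with CC and C with CCC cross it, so that the prefix and the difference of C from the other chow libraries cannot be told apart.

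The proximal promoters of the feedback genes are shown first because STAT5 and STAT3 bind a palindrome written TTCNNNGAA, which reads the same on both strands. Promoters of 300 bases, 250 before and 50 after the annotated start, were found for 9 of the 10 members in RefSeq (build GRCm38.p6), Socs2 being the member not searched, and capitals mark every match to the palindrome.

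Cish promoter (chr9:107296409-107296708, plus strand): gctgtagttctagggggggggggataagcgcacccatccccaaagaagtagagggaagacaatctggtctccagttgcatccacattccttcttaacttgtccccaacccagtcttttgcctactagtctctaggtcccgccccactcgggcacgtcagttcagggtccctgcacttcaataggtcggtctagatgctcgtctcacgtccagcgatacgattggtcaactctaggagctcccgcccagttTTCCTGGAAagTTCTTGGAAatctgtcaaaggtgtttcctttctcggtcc

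Socs3 promoter (chr11:117969317-117969616, minus strand): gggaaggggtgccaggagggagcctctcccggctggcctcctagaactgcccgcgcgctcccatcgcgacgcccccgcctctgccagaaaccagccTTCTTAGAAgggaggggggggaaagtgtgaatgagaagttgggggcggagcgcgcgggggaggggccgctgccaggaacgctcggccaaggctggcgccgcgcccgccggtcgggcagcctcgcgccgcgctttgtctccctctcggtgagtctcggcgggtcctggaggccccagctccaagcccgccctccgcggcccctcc

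The Cish window held 2 matches that did not overlap, TTCCTGGAA beginning at the RefSeq start used for this window and TTCTTGGAA beginning 11 bases downstream. This start lies inside the gene as GENCODE bounds it, downstream of the gene start given above. The Socs3 window held 1 match, TTCTTAGAA, 154 bases before the start. None of the other members with a promoter matched in this window. Of all 32851 promoters of this length, 8.30% held at least 1 match and 0.457% at least 2. A match is a description of the sequence and was not tested for binding.

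Of the members, Cish had the widest spread between the chow libraries. In adipocyte-gated nuclei of the chow groups Cish, whose product blocks the receptor's docking sites, was at 195 CPM in C (2288 UMIs), 2.85 CPM in CC (11 UMIs) and 15.3 CPM in CCC (55 UMIs). It was at 9.81 CPM in H, 15.7 CPM in HH, 37.2 CPM in HC, 19.8 CPM in HHC and 59.9 CPM in CCH. No Cish UMI was found in HCH, where 3 counts would correspond to a level of 1.89 CPM. C therefore stood above all the other libraries, and CC stood below each library except HCH.

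Cish in C was 68.3-fold its level in CC (log2 ratio 6.09, 5.25 to 7.10) and 12.8-fold its level in CCC. Among 13832 genes with at least 20 UMIs in C and CC together, this was the highest ratio of C to CC, rank 1. Over 14814 genes compared among C, CC and CCC, only 0.0608% spread more widely than Cish, and the median spread was 1.75-fold. A Cish UMI was seen in 48.3% of the C adipocyte-gated nuclei (1149 of 2378), in 1.02% of those in CC and in 3.65% of those in CCC. After thinning each nucleus to 2000 UMIs these shares were 29.3% (27.4 to 31.3), 0.540% (0.147 to 1.38) and 2.38% (1.48 to 3.62), with 176, 41 and 296 shallower nuclei left out. No nucleus of C held more than 11 Cish UMIs, or 0.481% of the total, so the level in C was spread over the class. In CC, by contrast, 1 nucleus held 4 of the 11 Cish UMIs (36.4%), and in HH 1 nucleus held 7 of the 29 (24.1%). The intervals of Cish in these libraries take UMIs as independent counts and do not cover this.

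For comparison, the thinned share of macrophage-gated nuclei with a Cish UMI was 2.38% in C (median 2191 UMIs, against 4871 for the adipocyte gate), 0.539% in CC and 0.855% in CCC. The adipocyte share was above the macrophage share in C, close to it in CC, and had an overlapping interval in CCC. In CCH the thinned adipocyte share was 10.7% (8.31 to 13.5) against 0.478% in macrophages, and in HC it was 7.93% against 1.71%. In HCH it was 0 of 309 nuclei, which allows up to 1.19%.

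Igf1, the growth factor induced by growth hormone, followed with a smaller spread. Its level in adipocyte-gated nuclei was 1927 CPM in C, 187 CPM in CC and 325 CPM in CCC. It was 537 CPM in H, 532 CPM in HH, 489 CPM in HC, 702 CPM in HHC, 675 CPM in CCH and 315 CPM in HCH. Every library outside the chow groups except HCH lay between C and CCC, and HCH lay between CCC and CC. C was 10.3-fold above CC for Igf1 (log2 ratio 3.36, 3.26 to 3.47), rank 38 of the 13832 genes. Igf1 is also made by macrophages, and macrophage markers in the adipocyte gate summed to 559 CPM in C, 590 CPM in CC and 771 CPM in CCC. Macrophage-gated nuclei of C held 316 CPM of Igf1. The part of macrophage RNA in the adipocyte values was not tested.

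Only 3.41% of the bases of Ghr are exonic, and intronic reads were counted. In adipocyte-gated nuclei Ghr was at 32493 CPM in C, 11278 CPM in CC and 10823 CPM in CCC. The other libraries held 17409 CPM (H), 11689.6 CPM (HH), 16983 CPM (HC), 27443 CPM (HHC), 15198.5 CPM (CCH) and 11448 CPM (HCH). C was highest, HHC next, and CC and CCC lowest, with HCH and HH close above them. The C to CC ratio was 2.88-fold (log2 ratio 1.53, 1.51 to 1.54).

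Socs2, the inhibitor that limits growth in response to growth hormone, was sparse in adipocyte-gated nuclei. It was at 20.6 CPM in C (242 UMIs), 7.25 CPM in CC and 8.88 CPM in CCC. The levels were 2.45 CPM in H (2 UMIs), 2.70 CPM in HH (5 UMIs), 4.50 CPM in HC, 7.27 CPM in HHC, 5.17 CPM in CCH and 8.80 CPM in HCH. C was again highest, H and HH lowest. Macrophages of C held 13.4 CPM of Socs2 (65.2% of the adipocyte level), and the thinned shares of nuclei with a Socs2 UMI were 3.91% in adipocytes and 2.05% in macrophages, with overlapping intervals.

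**Figure D1:**
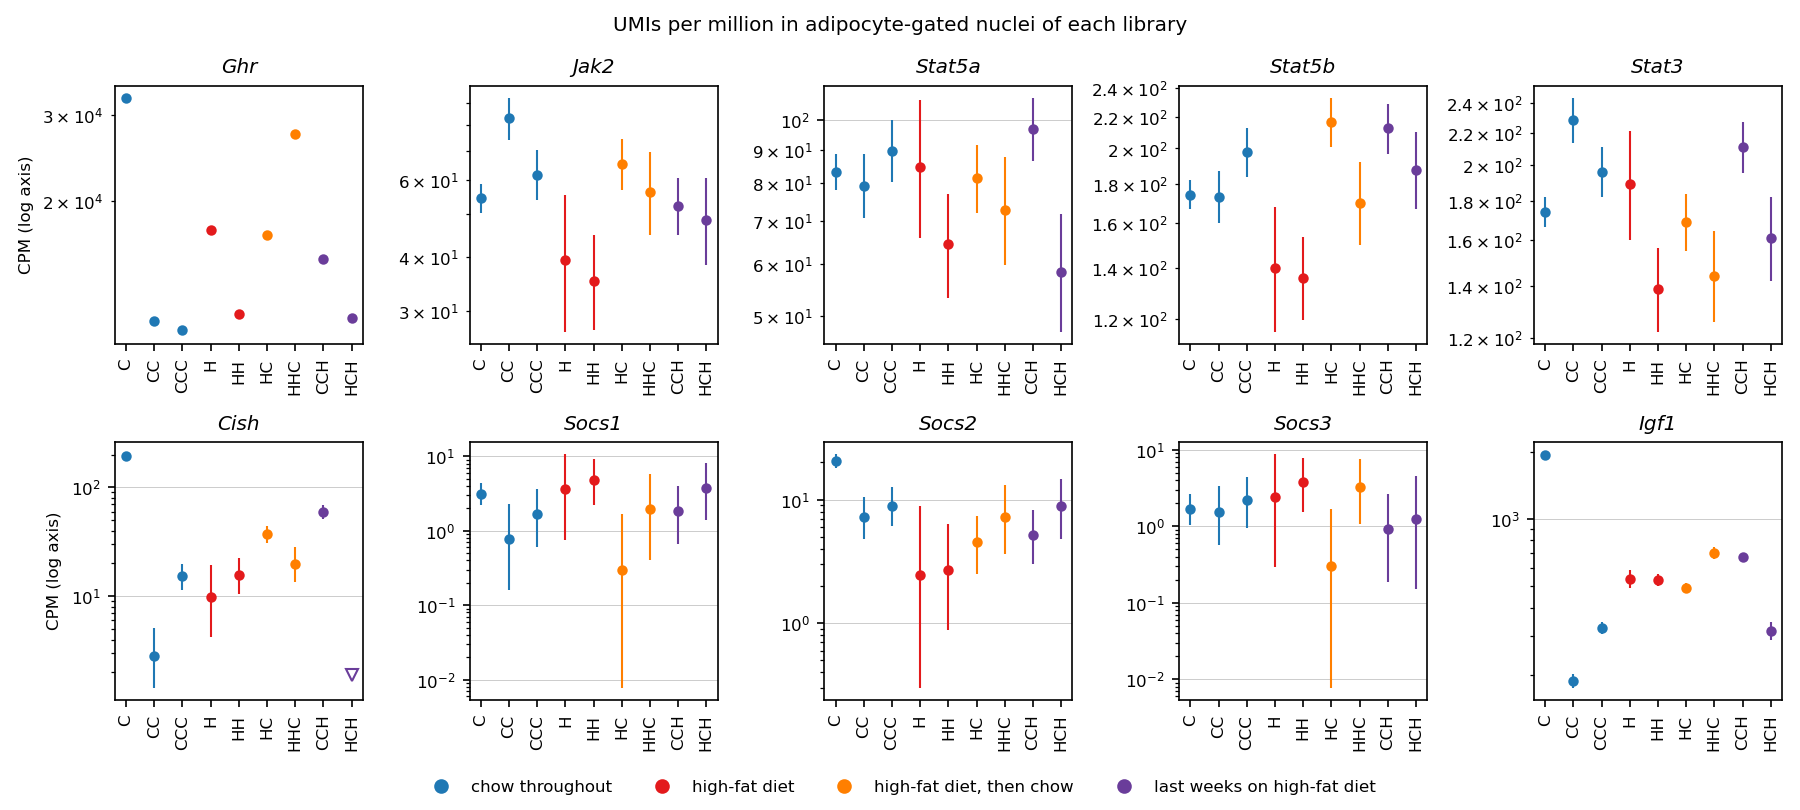
Level of each member in adipocyte-gated nuclei of the 9 libraries, in CPM on log axes that differ between panels. Points are single libraries of 5 pooled mice, bars are 95% Poisson intervals, and the open triangle marks the 3-count level of Cish in HCH, where no UMI was found. C lies highest for Ghr, Cish, Socs2 and Igf1.

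C was the highest of the 9 libraries for 4 members, Cish, Socs2, Ghr and Igf1. Over 16364 genes C was the highest for 7.63%. In the direct ratio of C to CC, 5 of 10 members were at least 2-fold higher (Cish, Socs1, Socs2, Ghr and Igf1) and 0 were 2-fold lower, where 6.56% and 12.4% of all genes were higher and lower. Socs1 rested on 37 UMIs in C and 3 in CC. The transducers and the inhibitor Socs3 were not among the higher members. Jak2 was at 54.4 CPM in C, 82.9 CPM in CC and 61.6 CPM in CCC. The chow spread of Stat5a (1.13-fold), Stat5b (1.14-fold), Stat3 (1.31-fold) and Socs3 (1.43-fold) was below the median spread of all genes.

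**Figure D2:**
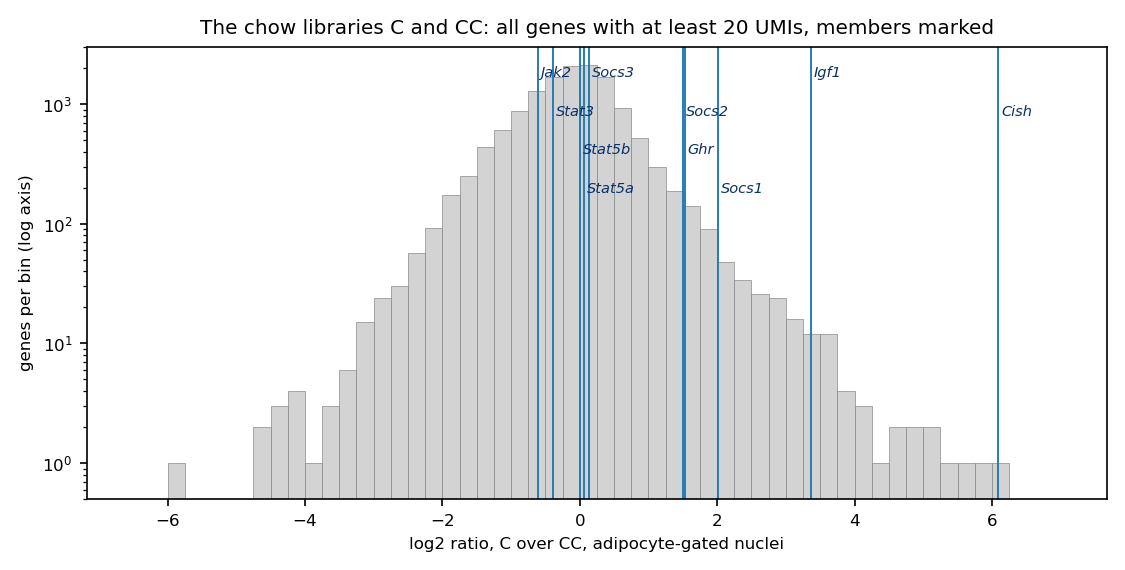
Histogram of the log2 ratio of C over CC in adipocyte-gated nuclei for 13832 genes, with genes per bin of 0.25 on a log axis and each member marked by a line. Cish lies at the upper end at 6.09 and Igf1 at 3.36, whereas Jak2, Stat3, Stat5a, Stat5b and Socs3 lie near the centre.

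Obesity was read from H with C and HH with CC, which ask how adipocytes of mice on high-fat diet differ from those on chow. The answer for Cish and Igf1 turned on the chow library. Cish was 19.8-fold lower in H than in C (log2 ratio -4.31, -5.52 to -3.33), yet 5.50-fold higher in HH than in CC (2.46, 1.42 to 3.61). Set against C in place of CC, HH was 12.4-fold lower (-3.63, -4.22 to -3.11). The levels of H and HH themselves, 9.81 and 15.7 CPM, had overlapping intervals (4.24 to 19.3 and 10.5 to 22.5).

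Igf1 showed the same arrangement. It was 3.59-fold lower in H than in C (log2 ratio -1.84, -1.98 to -1.71) and 2.84-fold higher in HH than in CC (1.51, 1.37 to 1.65). Against C, HH was 3.62-fold lower (-1.86, -1.95 to -1.76). The Igf1 levels of H and HH, 537 and 532 CPM, had overlapping intervals and lay inside the chow range.

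Ghr was 1.87-fold lower in H than in C (log2 ratio -0.90, -0.92 to -0.88), short of the 2-fold call, although another scaling (trimmed mean of M values, TMM) moved this to -1.40, past the call. Its log2 ratio in HH with CC was 0.05 (0.03 to 0.08), which TMM scaling turned to -0.22. Against C it was 2.78-fold lower in HH. Socs2 was lower on either control, at a log2 ratio of -3.07 (-6.12 to -1.20) for H with C and -1.42 (-3.15 to -0.03) for HH with CC, resting on 2 and 5 UMIs in H and HH. The macrophage gate of H and HH held Socs2 at 3.17 and 2.96 CPM, no lower than the adipocyte gate.

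Jak2 was at 39.3 CPM in H and 35.2 CPM in HH, below all 3 chow libraries. Its log2 ratio was -0.47 (-1.03 to 0.04) for H with C and -1.24 (-1.65 to -0.85) for HH with CC, the latter a 2.36-fold lower level. CC was the highest of the libraries for Jak2, at 82.9 CPM. Against C, at 54.4 CPM, HH did not reach 2-fold in CPM, so this call depended on the control. It also depended on the scaling, since TMM factors of 0.819 for C and 1.12 for HH would take this ratio past 2-fold. Stat5b was likewise below the chow range, at 139.8 CPM in H and 136 CPM in HH against 174, 173 and 198 CPM in C, CC and CCC, but its log2 ratios were -0.32 and -0.35. Stat5a ranged from 58.5 CPM (HCH) to 96.9 CPM (CCH) and Stat3 from 138 CPM (HH) to 228 CPM (CC), and neither reached a 2-fold ratio in any of the 6 comparisons of the design. Under TMM scaling the H with C ratio of Stat3 turned from 0.12 to -0.38 and that of Stat5a from 0.03 to -0.47. Stat5a and Stat5b are close paralogs whose shared reads may have been lost in counting, and the ends of Stat5a and Stat3 overlap on opposite strands.

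Socs1 and Socs3 were near the limit of detection in adipocyte-gated nuclei, with 1 to 37 and 1 to 20 UMIs per library. Socs1 was at 3.68 CPM in H and 4.87 CPM in HH, above the 0.777 to 3.15 CPM of the chow libraries, although under TMM scaling H lay inside the chow range. Socs3 was at 2.45 CPM in H and 3.79 CPM in HH, above the 1.55 to 2.22 CPM of chow. The intervals of H overlapped those of C for both genes. In HC each of these genes had 1 UMI (0.300 CPM), the lowest of the 9 libraries.

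Counted over the members, H with C gave 3 of 10 lower (Cish, Socs2 and Igf1) and 0 higher. Of all 13412 genes tested, 7.3% were lower and 28.1% higher. Genes without a UMI in H were set to 3 counts, or 3.68 CPM, which can exceed their level in C and count them as higher. With at least 50 UMIs over both libraries these shares were 7.57% and 23.8%, and the median log2 ratio of all genes was 0.24. HH with CC gave 2 of 8 tested lower (Socs2 and Jak2) and 2 higher (Cish and Igf1), with 9.72% and 26.0% of all genes. The median log2 ratio of the members tested was -0.39 and -0.33, beside 0.34 and 0.21 over all genes tested. TMM scaling moved these all-gene medians to -0.15 and -0.06. It shifts every gene of a comparison equally, so the member medians fell by as much and their distance from all genes was unchanged. The share of calls that were higher went from 79.4% to 51.2% in H with C and from 72.8% to 58.3% in HH with CC. With C as control, HH had 4 of 10 members lower and 1 higher (Socs3), with 7.47% and 29.4% of all genes. H and HH lay together below the range of C, CC and CCC for Socs2, Jak2 and Stat5b (18.6% of all genes) and above it for Socs1 and Socs3 (33.2%).

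**Figure D3:**
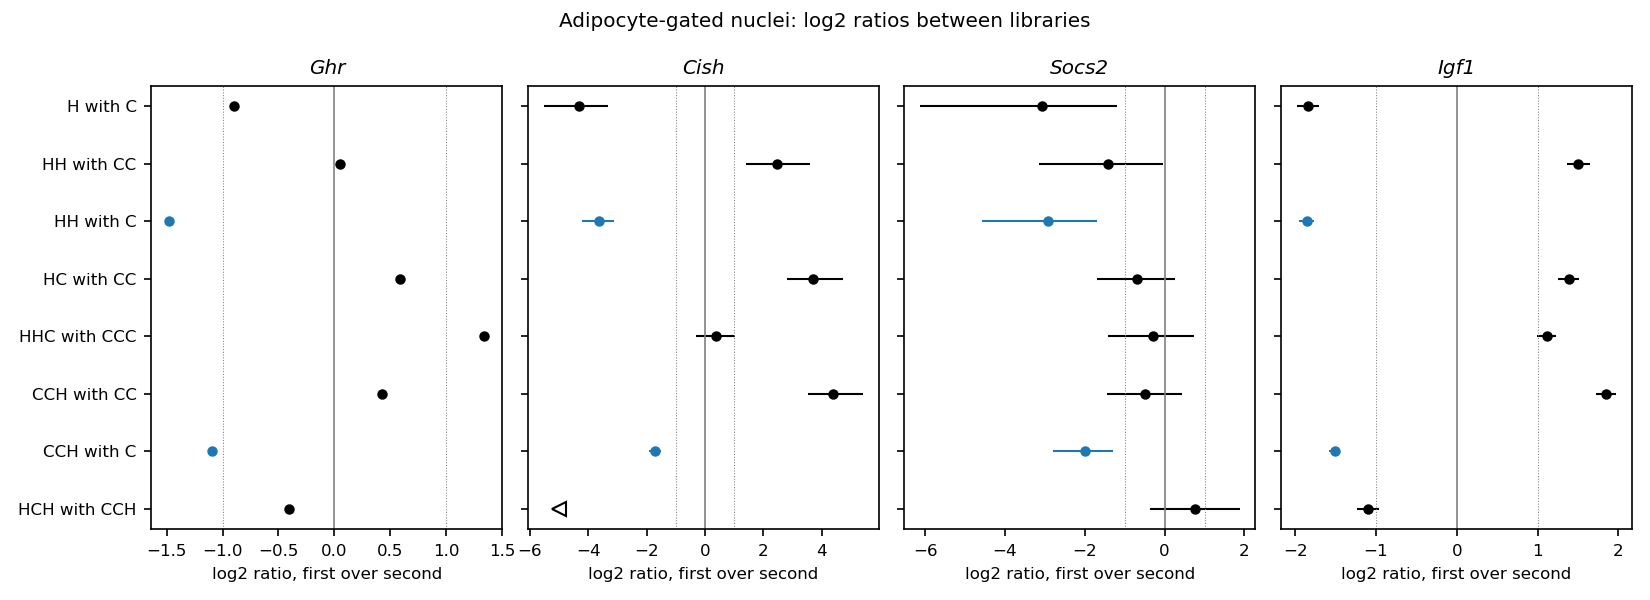
Log2 ratios between libraries for Ghr, Cish, Socs2 and Igf1 in adipocyte-gated nuclei, with exact 95% intervals. Black points are the 6 comparisons of the design, blue points give HH and CCH against C in place of CC, and the open triangle marks the lower-bound fold of Cish in HCH. Cish and Igf1 lie left of 0 against C and right of 0 against CC.

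After weight loss, HC with CC and HHC with CCC ask what remains once the obese mice have returned to chow. Cish was 13.1-fold higher in HC than in CC (log2 ratio 3.71, 2.82 to 4.75), whereas HHC with CCC gave 1.30-fold (0.38, -0.31 to 1.05), an interval that spanned 0. Igf1 was higher in both, at 2.61-fold in HC (1.38, 1.26 to 1.51) and 2.16-fold in HHC (1.11, 0.99 to 1.23). Ghr was 1.51-fold higher in HC (0.59, 0.57 to 0.61) and 2.54-fold higher in HHC (1.34, 1.32 to 1.36). For all of these, HC and HHC stayed below C.

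HC with CC gave 2 of 8 tested members higher (Cish and Igf1) and 0 lower, with 4.77% and 8.05% of all genes. HHC with CCC gave 2 of 8 higher (Ghr and Igf1) and 0 lower, with 5.76% and 10.5% of all genes, a background that became 13.2% and 3.23% when classes were taken from clusters. The macrophage markers in the adipocyte gate summed to 675 CPM in HC and 1787 CPM in HHC, the highest of the 9 libraries, against 590 CPM in CC and 771 CPM in CCC. Their part in the Igf1 ratio was not tested. Stat3, at 169 CPM in HC and 144 CPM in HHC, lay below the chow range in both libraries, as did 14.7% of all genes. No other member lay on the same side of it in both at these settings. The call of Stat3 was lost under TMM scaling, and its interval in HC overlapped that of C. The count of members outside the range went from 1 to between 2 and 4 under 6 of the alternatives. The share of all genes outside under those alternatives is not given here, so the rise cannot be read as particular to the members. No member lay above the chow range in both at the main settings, beside 8.14% of all genes.

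The last pair asks how adipocytes that had been obese before respond to renewed high-fat feeding. CCH, exposed for the first time, had 59.9 CPM of Cish (197 UMIs in 650 nuclei), and HCH had 0 UMIs in 379 nuclei. With HCH set to the floor of 3 counts, Cish was 31.7-fold lower in HCH than in CCH. This is not a limit of an interval, and 0 UMIs in HCH allow up to 2.32 CPM. Igf1 was 2.14-fold lower (log2 ratio -1.10, -1.24 to -0.96), and Ghr was 1.33-fold lower (-0.41, -0.43 to -0.38). Stat5a was lower by 1.66-fold (-0.73, -1.08 to -0.39). Cish and Igf1 were the 2 of 8 tested members called lower, and 0 were higher, with 2.49% and 17.2% of all genes.

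The filter to at most 3000 detected genes bore heavily on these libraries, since without it the adipocyte gate held 2278 nuclei in CCH and 1442 in HCH. Cish was then at 40.7 CPM in CCH (1112 UMIs) and 0.884 CPM in HCH (15 UMIs), again the lowest of the 9 libraries. The log2 ratio of HCH to CCH was -5.52 (-6.36 to -4.79) for Cish and -0.58 (-0.63 to -0.54) for Igf1, which no longer reached 2-fold.

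CCH with CC crossed the name prefix and gave 2 of 8 tested members higher, Cish (21.0-fold, log2 ratio 4.39, 3.52 to 5.42) and Igf1 (3.60-fold, 1.85, 1.73 to 1.97), and 0 lower, with 6.68% and 9.25% of all genes. Against C, CCH was lower for Cish (log2 ratio -1.70, -1.92 to -1.49), Socs2 (-2.00, -2.80 to -1.29), Ghr (-1.10, -1.11 to -1.08) and Igf1 (-1.51, -1.58 to -1.45), 4 of 10 members where 5.11% of all genes were lower. None of the 10 was higher against C, beside 7.28% of all genes. CCH and HCH lay together below the chow range for Jak2 and Socs3, as did 9.55% of all genes. Socs3 rested on 3 UMIs in CCH and 2 in HCH. The Jak2 intervals of CCH (44.7 to 60.7) and HCH (38.2 to 60.5) overlapped that of C (50.2 to 58.8). No member lay above it in both, beside 12.2% of all genes.

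In progenitor, endothelial, mesothelial and macrophage gates C was again the highest library for Cish and Socs2, although CC and CCC did not keep one order. In progenitor-gated nuclei, the stromal cells that give rise to adipocytes, Socs2 was at 116 CPM in C, 27.5 CPM in CC and 43.8 CPM in CCC. In endothelial-gated nuclei Socs2 was at 156 CPM in C, 58.7 CPM in CC and 48.2 CPM in CCC, but in CCC only 96 of the 282 nuclei lay in clusters with a named type, against 1050 of 1072 in C. Adipoq in this gate stood at 25.2%, 104% and 81.2% of its adipocyte level in C, CC and CCC, and the part of free RNA in the difference was not tested. In mesothelial-gated nuclei Socs2 was at 202 CPM in C, 92.2 CPM in CC and 76.1 CPM in CCC. C was the highest library for Cish and Socs2 in each of these classes and in macrophages, where C was highest for 10.1% (progenitor), 9.99% (endothelial), 9.91% (mesothelial) and 9.03% (macrophage) of all genes.

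T or NK cells, in which interleukins also induce Cish, held 148 CPM of it in C from 30 UMIs and 115 CPM in CCH from 35 UMIs. The epithelial gate of C held 55.3 CPM, 28.4% of the adipocyte level. Progenitors of C held 20.5 CPM, macrophages 15.7 CPM, endothelial nuclei 29.6 CPM and mesothelial nuclei 40.9 CPM, between 8.06% (macrophage) and 21.0% (mesothelial) of the adipocyte level of C. The adipocyte markers Adipoq and Plin1 stood at 19.4% and 6.60% of their adipocyte level in macrophages of C, at 66.6% and 32.0% in those of CC and at 20.8% and 12.2% in those of CCC. How much of the Cish in these classes was free RNA was not tested. In CC the endothelial gate held 10.5 CPM of Cish (7 UMIs) and the mesothelial gate 14.6 CPM (9 UMIs), beside 2.85 CPM in the adipocyte gate. The endothelial interval (4.24 to 21.7) overlapped the adipocyte one (1.42 to 5.10), and the mesothelial interval (6.66 to 27.6) lay above it.

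Ghr outside adipocytes moved with the library. Macrophages had 1309.5 CPM of Ghr in C, 2490.0 CPM in CC and 870 CPM in CCC, but 50.7 CPM in H and 49.7 CPM in HH. Adipocyte-gated nuclei made up 21.4%, 19.5% and 21.5% of the nuclei kept in C, CC and CCC, but 2.05% in H and 3.45% in HH. In progenitors Ghr was 2.76-fold lower in HH than in CC (log2 ratio -1.46, -1.52 to -1.41) and 1.89-fold lower in H than in C (-0.92, -0.96 to -0.87). Whether these differences exceed the share of free RNA was not tested.

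**Figure D4:**
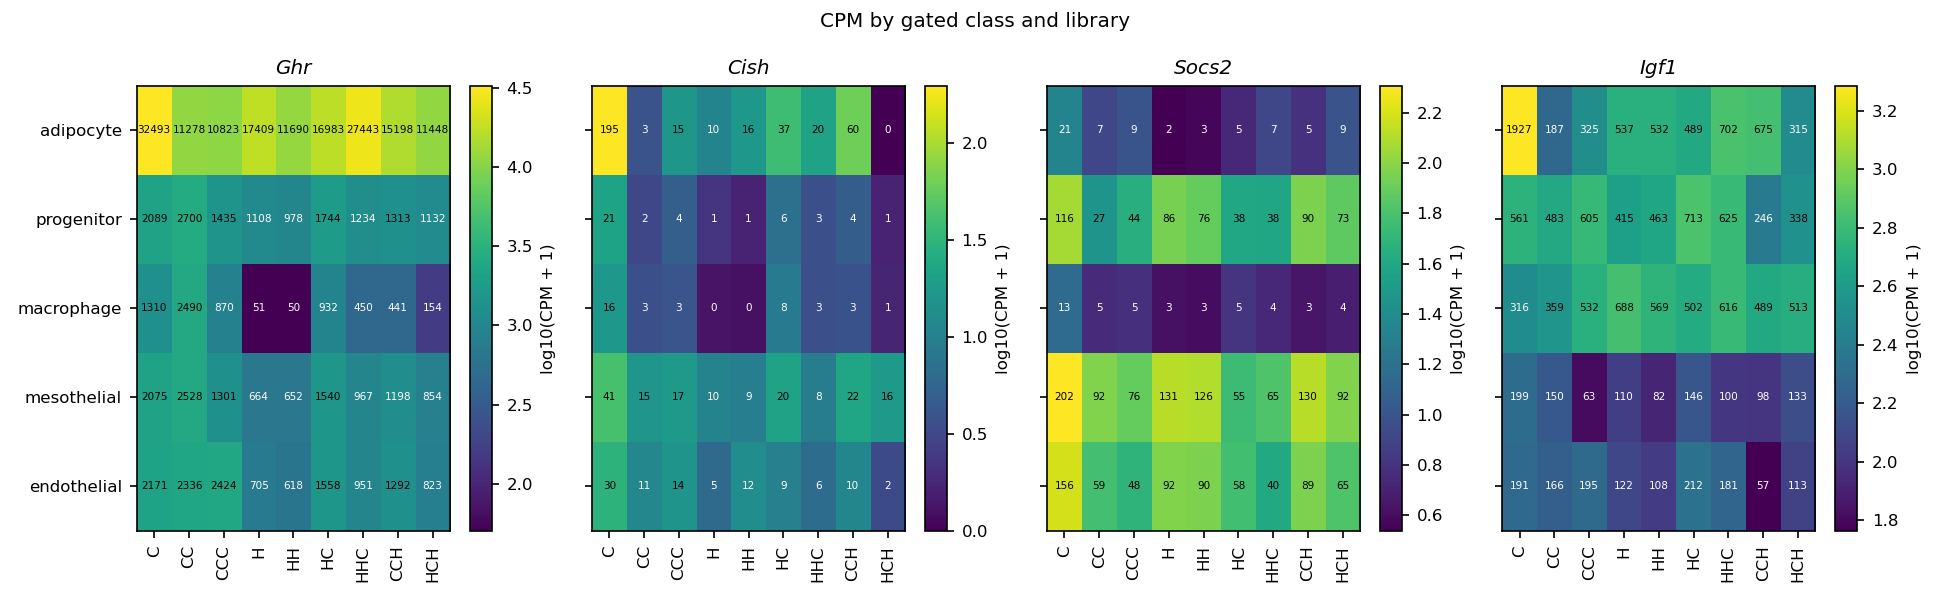
Level of Ghr, Cish, Socs2 and Igf1 by gated class (rows) and library (columns). Colour gives log10(CPM + 1) on a scale of its own for each gene, and the printed numbers are CPM. Socs2 is lower in adipocytes and macrophages than in progenitor, mesothelial and endothelial nuclei, and C is the highest column for Cish and Socs2 in every class shown.

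In progenitors Socs3 was called higher in both high-fat comparisons. It was at 27.9 CPM in H (154 UMIs) and 25.4 CPM in HH (157 UMIs), against 11.6 CPM in C, 3.11 CPM in CC and 8.49 CPM in CCC. H and HH were the highest libraries, and their intervals did not overlap those of any chow library. The log2 ratio of Socs3 was 1.27 (0.82 to 1.73) for H with C and 3.03 (1.87 to 4.50) for HH with CC. After weight loss Socs3 was at 2.84 CPM in HC and 9.65 CPM in HHC, and after renewed high-fat diet at 5.55 CPM in CCH and 12.1 CPM in HCH. HCH was 2.18-fold higher than CCH for Socs3 in progenitors (1.12, 0.55 to 1.72).

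Socs1 in progenitors was at 6.53 CPM in H and 7.27 CPM in HH, above 3.94, 2.07 and 3.27 CPM in C, CC and CCC, although the interval of H with C spanned 0 (0.73, -0.11 to 1.61). Socs2 gave opposite signs in progenitors. It was lower in H than in C (-0.42, -0.60 to -0.24) and higher in HH than in CC (1.47, 1.06 to 1.91), with H at 86.5 CPM and HH at 76.1 CPM. In HH with CC, 3 of 9 tested members were higher in progenitors (Socs1, Socs2 and Socs3) and 2 were lower (Ghr and Stat5a), with 26.0% and 8.42% of all genes. In H with C, 1 of 10 was higher (Socs3) and 1 lower (Cish), with 22.8% and 5.91% of all genes.

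Igf1 behaved in other ways outside adipocytes. Macrophages held 316 CPM of Igf1 in C, 359 CPM in CC and 532 CPM in CCC, beside 688 CPM in H and 569 CPM in HH. The other libraries held 502 CPM (HC), 616 CPM (HHC), 489 CPM (CCH) and 513 CPM (HCH). HHC, after weight loss, thus lay above HH. The log2 ratio was 1.12 (1.04 to 1.21) for H with C and 0.66 (0.54 to 0.79) for HH with CC. The kinds of macrophage differed between these libraries, and only 728 of the 4426 macrophage-gated nuclei of H and 2494 of the 4709 of HH lay in clusters with a named type, against 1592 of 1612 in C and 476 of 480 in CC. This holds for every macrophage value of H and HH given here. Perivascular macrophages, the resident kind found in all 9 libraries, had 311 CPM in C, 358 CPM in CC and 559.9 CPM in CCC. Their levels elsewhere were 796 CPM (H), 678 CPM (HH), 588 CPM (HC), 763 CPM (HHC), 504 CPM (CCH) and 546 CPM (HCH). Lipid-associated macrophages, which gather around dying adipocytes, had 665 CPM in H and 518 CPM in HH. They had 455 CPM in HC, 574 CPM in HHC and 483 CPM in HCH.

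Progenitors held 561, 483 and 605 CPM of Igf1 in C, CC and CCC, with CC lowest and CCC highest. They held 415 CPM in H, 463 CPM in HH, 713 CPM in HC and 625 CPM in HHC. The lowest progenitor levels were 246 CPM in CCH and 338 CPM in HCH. CCH was thus high for Igf1 in adipocytes against CC and low in progenitors, where the log2 ratio to CC was -0.97 (-1.09 to -0.85).

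Stat3 and Jak2 lay below the chow range in macrophage-gated nuclei of H and HH taken as 1 class. Stat3 was at 161 CPM in H and 126 CPM in HH, against 294, 197 and 219 CPM in C, CC and CCC. Jak2 was at 70.7 CPM in H and 73.8 CPM in HH, against 110, 81.9 and 100.2 CPM. Within perivascular macrophages alone, Stat3 was at 211 CPM in H, above the 200.2 CPM of CC, and at 166 CPM in HH, while lipid-associated macrophages had 146 CPM in H and 112 CPM in HH. Jak2 in perivascular macrophages was at 69.2 CPM in H and 73.0 CPM in HH against 78.8 CPM in CC, with overlapping intervals. Of the 10 members in macrophages, 6 lay below and 3 above the chow range in H and HH together, where 23.3% and 38.8% of all genes did.

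The pathway list held 51 further genes in 6 roles. In H with C, 6 of 46 tested were lower and 5 higher, and in HH with CC 3 of 45 were lower and 7 higher, beside the shares of all genes given above (7.3% and 28.1%, 9.72% and 26.0%). Under TMM scaling 18 were lower and 3 higher in H with C, where 16.9% of all genes were lower and 17.8% higher. Of the 4 other SOCS genes only Socs7 was called, lower in H with C. Of the 7 other Janus kinases and STATs 0 were called in either comparison, with 7 and 6 tested. Of the 9 other cytokine receptors 8 were tested, with 1 lower in each comparison (Il6ra) and 1 higher in H with C (Ifngr2).

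Il6ra, the interleukin-6 receptor chain, was at 188, 198 and 206 CPM in C, CC and CCC, and at 83.4 CPM in H and 63.8 CPM in HH. Its log2 ratio was -1.17 (-1.54 to -0.82) for H with C and -1.64 (-1.93 to -1.36) for HH with CC. H and HH lay well below the chow libraries, and the values in HC and HHC were 128 and 173 CPM. Igf1r, the receptor for IGF1, was at 66.5, 117 and 206 CPM in C, CC and CCC, at 22.1 CPM in H and at 36.8 CPM in HH. Its log2 ratio was -1.59 (-2.35 to -0.92) and -1.67 (-2.06 to -1.30) in these comparisons.

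Higher in both were Igf2r, which clears IGF2, Grb14, an adaptor that restrains insulin receptor signalling, Pias3, an inhibitor of Stat3, and the transcription factor Cebpb. Grb14 was at 60.1, 72.5 and 89.4 CPM in the chow libraries and higher in the other 6, from 165 CPM in CCH to 378 CPM in HHC. Its log2 ratio was 2.50 (2.29 to 2.70) for H with C, 1.65 (1.43 to 1.88) for HH with CC, 1.90 (1.70 to 2.10) for HC with CC and 2.08 (1.88 to 2.28) for HHC with CCC. Grb14 thus had the same sign against each chow library, unlike Cish and Igf1. Igf2r was higher at 1.73 (1.26 to 2.17) and 1.69 (1.35 to 2.03), and Cebpb at 1.72 (1.48 to 1.95) and 3.14 (2.89 to 3.40). Pias3, at 1.09 (0.24 to 1.86) and 1.45 (0.61 to 2.30), rested on few UMIs, and its call in H with C did not hold under TMM scaling.

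**Figure D5:**
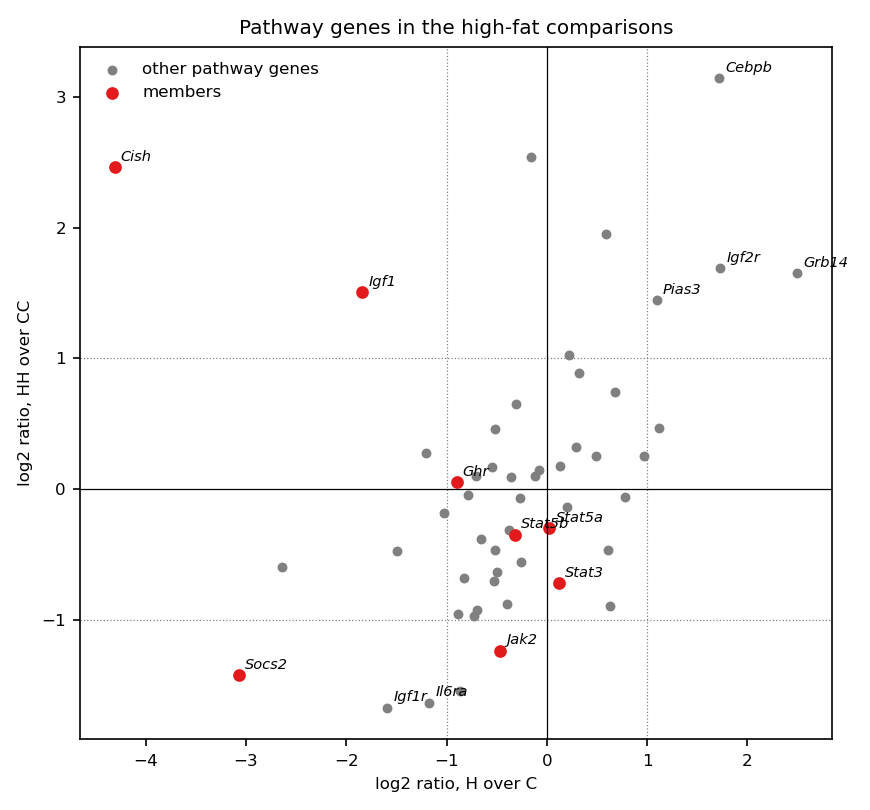
Log2 ratio of H over C (x axis) against HH over CC (y axis) in adipocyte-gated nuclei for the 8 members and 45 other pathway genes with at least 20 UMIs in both comparisons. Dotted lines mark 2-fold. Cish and Igf1 lie in the upper left corner, lower in H and higher in HH, and Grb14, Igf2r, Pias3 and Cebpb in the upper right.

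The genes most like Cish across the 9 libraries, among 6910 with at least 200 UMIs and a log2 range of at least 1, were Pygl (Pearson r of log2(CPM + 1) 0.954), the liver-type glycogen phosphorylase, Osbpl1a (0.898) and Ap2a2 (0.868). Pygl was at 214 CPM in C, 72.3 CPM in CC, 119.9 CPM in CCC, 170.1 CPM in CCH and 49.7 CPM in HCH, with C highest and HCH lowest, as for Cish. Among the genes nearest to Ghr were Bcl2 (0.945) and Nabp1 (0.918), and nearest to Socs2 were Pik3c3 (0.909), Cbx7 (0.893) and Gas6 (0.892). Between the members highest in C, r was 0.849 for Ghr and Igf1, 0.813 for Cish and Igf1 and 0.666 for Cish and Ghr. Without C these were 0.706, 0.686 and 0.445. Socs2 had lower values, at 0.398 with Ghr, 0.335 with Igf1 and 0.226 with Cish. Without C its values were negative, at -0.160, -0.482 and -0.376. The points share their libraries and total counts, so these values are descriptions over 9 points.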

How the data were processed

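Single-nucleus RNA of 9 libraries was analysed from raw UMI counts per gene and barcode, as deposited by the authors. The submitters' processing notes name Cell Ranger 6.1.2, Seurat 4.1.0 and mm10, and introns were counted. A nucleus entered the analysis if it had between 500 and 3000 genes detected and no more than 40000 UMIs. Doublets were called with Scrublet (scanpy 1.11.5, expected at 0.8% per 1000 nuclei), and in 4 libraries the nuclei with the highest scores at that rate were removed because the automatic threshold had not worked. Totals excluded Malat1 and the mitochondrial genes, which held 3.89% to 10.6% of UMIs.

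Each nucleus was classed by marker genes whose UMIs exceeded the level found in other classes of its library (Poisson tail of 3 on the -log10 scale, at least 2 markers, runner-up at most 50%). This gate replaced a planned count of detected markers, which had put most nuclei of CC among adipocytes, since adipocyte markers were also found at high levels in the other classes of that library. The change was made after class sizes, and not member values, of that gate had been seen. UMIs were summed per library and class and scaled to CPM. Intervals of levels are Poisson, of shares Clopper-Pearson and of ratios conditional binomial. UMI sums of pooled nuclei have no replicate, so no test was run. A gene at 0 was compared through a floor of 3 counts. In H, the smallest adipocyte class, this floor was 3.68 CPM and could exceed a low level in C.

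The members, the pathway list and the rules were chosen with earlier results of these data known. The genes named were all members, the other pathway genes past 2-fold in the same direction in H with C and HH with CC, and the 3 genes most like each of Cish, Socs2 and Ghr, of which 1 is not reported here. Other genes are named only where a count was small. The control C in place of CC, TMM scaling (edgeR 4.0.16), clusters in place of the gate, other gates, doublets kept and other limits on genes and UMIs were tried. The ratio calculation was tested on simulated data. Gene positions are from GENCODE M21.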

Additional observations from a re-analysis of the deposited data

Results flagged for a closer look

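In adipocyte-gated nuclei Cish had a log2 ratio of -4.31 in H with C and of 2.46 in HH with CC, opposite signs for the high-fat libraries against their own controls. The levels of H and HH had overlapping intervals, and the controls C and CC differed. Igf1 in adipocyte-gated nuclei also had opposite signs, at -1.84 in H with C and 1.51 in HH with CC. Socs2 had opposite signs in progenitor-gated nuclei, at -0.42 in H with C and 1.47 in HH with CC. Each side of these differences is 1 library against 1 library, the controls C and CC are not the same, and the difference was not tested.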

How the results depend on the processing

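With C in place of CC as control, 4 ratios past 2-fold turned sign, Cish to -1.70 (CCH) and -3.63 (HH) and Igf1 to -1.51 (CCH) and -1.86 (HH), and the members called in CCH went from 2 to 4. In CCH with C, 5.11% of all genes were lower and 7.28% higher. Classes taken from clusters gave 5 members called in H with C (3 by the gate), where 7.49% of all genes were lower and 30.9% higher. Dropping the UMI minimum gave 4 in HC with CC (2), with 11.5% lower and 8.73% higher of all genes. A minimum of 50 UMIs gave 2 in HH with CC (4), with 8.28% lower and 22.3% higher of all genes. No upper limit on detected genes gave 1 in HCH with CCH (2), with 2.73% lower and 18.7% higher of all genes. Members outside the chow range in CCH and HCH fell from 2 to 1 with clusters and to 1 with 50 UMIs. In H and HH they went from 5 to 3 with either marker-count gate and to 8 with the range from CC and CCC only. In HC and HHC they went from 1 to 3 without the upper limit and with either marker-count gate, to 2 with doublets kept or with mitochondrial genes and Malat1 in totals, and to 4 with the range from CC and CCC only. A narrower chow range leaves more room outside it for any gene. The share of all genes outside each changed range is not given here, so these counts cannot be read as particular to the members. Pathway genes called went from 11 to 21 in H with C and from 6 to 3 in HCH with CCH under TMM scaling, and from 4 to 7 in HHC with CCC with clusters. Of all genes, 16.9% were then lower and 17.8% higher in H with C, and 4.39% and 12.5% in HCH with CCH. In HHC with CCC these shares were 3.23% and 13.2%. The cause of the changes in these counts was not tested.

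TMM scaling moved the all-gene median in HCH with CCH from 0.15 to -0.09 and the higher share of calls from 87.4% to 74.1%, and clusters moved that share in HHC with CCC from 35.3% to 80.4%. Members highest in C numbered 4 under each alternative run. Of the members' ratios under the alternatives, 470 stayed within the counting interval of the reported ratio, and 101 left it besides the 4 above. Of these 101, 56 were ratios of Ghr, which stayed within its interval in 10. Ratios that were not past 2-fold also turned sign under some alternatives. No paired analysis was possible because each group held 1 library, and no replicate could be left out. Socs1, Socs3 and, in H and HH, Socs2 rest on few UMIs, which limits every statement on them.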

Other observations

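Single genes of HC lay apart in either direction and were picked after their values were seen. Socs1 was at 0.300 CPM in adipocytes and 0.284 CPM in progenitors of HC, each from 1 UMI and each the lowest of the 9 libraries. Cebpb, a transcription factor of adipocyte differentiation and acute responses, was at 6.00 CPM in adipocyte-gated nuclei of HC, against 42.5 CPM in CC and 375 CPM in HH. In epithelial-gated nuclei Cish was highest in HC, at 80.5 CPM from 57 UMIs, above the 55.3 CPM of C.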
